A study of Mus musculus with 22 samples.

Results

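The comparison described here set caerulein-treated pancreas without Ehmt2 in the epithelium against caerulein-treated pancreas with the gene intact, both in mice that carry the Pdx1-Cre transgene. Its 6 libraries were chosen by genotype, Cre driver and treatment, with no measured value used, and are 6 of the 22 whole-pancreas RNA libraries of the study. They are 2 Ehmt2 fl/fl and 4 Ehmt2 +/+ mice, all on a C57Bl/6 background, all carrying Pdx1-Cre and all 4 weeks old. Every mouse was fasted for 12 h and then given caerulein, 50.0 µg per kg into the peritoneum once an hour for 8 doses, and the pancreas was taken 18 h after the first of them. Caerulein is an analog of cholecystokinin that overstimulates acinar cells and causes acute pancreatitis. Pdx1-Cre recombines in the pancreatic epithelium (acinar, duct and endocrine cells), so leukocytes, fibroblasts and vessels of the Ehmt2 fl/fl pancreas keep an intact gene. In RNA of whole tissue, fewer cells of a type and less RNA per cell cannot be told apart.

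Ehmt2 (also called G9a) encodes a methyltransferase that adds the first and second methyl groups to lysine 9 of histone H3, a mark of repressed chromatin. Acinar cells make and store digestive enzymes under a small set of transcription factors, among them the PTF1 complex, NR5A2 and BHLHA15 (MIST1). In pancreatitis these cells lower enzyme transcription, may take on duct-like gene expression and release signals that draw neutrophils and monocytes into the organ, a state that is normally reversed as the tissue regenerates.

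Library totals were 31155447 and 34577390 counts in Ehmt2 fl/fl and lay between 32081250 and 40320648 counts in Ehmt2 +/+. Levels are given as CPM, counts scaled to the same library size after TMM normalisation, and differences as log2 values of Ehmt2 fl/fl minus Ehmt2 +/+ with the standard error of the edgeR fit. The TMM factors were 1.495 and 1.452 in Ehmt2 fl/fl and 0.740 to 0.912 in Ehmt2 +/+. Digestive enzyme transcripts, which define the labelled tissue, took 30.03% and 26.4% of all counts in Ehmt2 fl/fl and 37.9%, 40.5%, 47.01% and 28.6% in Ehmt2 +/+. Xist and the Y-linked transcripts showed that both Ehmt2 fl/fl mice were male and all 4 Ehmt2 +/+ mice female, so genotype and sex cannot be told apart within these 6 libraries. A fit with sex as a covariate was possible only in the model of all 11 treated libraries, in which P48-Cre mice of both sexes are included. Ehmt2 +/+ replicates 1 and 4 and Ehmt2 fl/fl replicate 2 held much more RNA of B and T cells than the other 3 libraries. The length balance of a library, the log2 level of long genes against short genes and a sign of RNA quality, was 0.16 and 0.21 in Ehmt2 fl/fl and -0.27, -0.20, -0.23 and 0.35 in Ehmt2 +/+.

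The targeted gene was read first. Ehmt2 (ENSMUSG00000013787, chromosome 17, 34898469 to 34914052, GRCm38) stood at 56.4 and 56.5 CPM in Ehmt2 fl/fl and 60.3, 61.9, 66.01 and 66.1 CPM in Ehmt2 +/+. The groups did not overlap, but the log2 difference of -0.17 ± 0.13 did not pass (edgeR adjusted p = 0.516). Counts per gene include exons outside the floxed part and cells without Cre, so this level does not check the deletion. Among 20 tested genes that write, read or erase H3K9 methylation 1 rose, Uhrf1, which encodes a hemimethylated DNA binding protein (18.8 and 12.3 CPM in Ehmt2 fl/fl and 6.40, 5.39, 6.42 and 7.08 CPM in Ehmt2 +/+, log2 1.30 ± 0.21, adjusted p = 0.028). Ehmt1, the partner of Ehmt2, did not pass (15.1 and 15.2 CPM in Ehmt2 fl/fl and 14.2, 12.7, 14.7 and 17.8 CPM in Ehmt2 +/+).

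Of 15144 genes tested, 1006 (6.64%) passed, which means a Benjamini-Hochberg adjusted p (edgeR) below 0.1 together with a change of 1 or more on the log2 scale. They were 631 genes that rose (4.17%) and 375 that fell (2.48%) in Ehmt2 fl/fl, while the median over all genes was 0.0048. In all 1006 the groups did not overlap, as was the case in the upward direction for 21% and in the downward direction for 15.6% of all genes tested. Scaling by library totals alone, without TMM factors, moved the median of all genes to 0.84 and gave 5230 higher and 98 lower calls. All 1006 genes kept their direction under that scaling. The shift was upward and smaller than the change of 1 required for a call, so a reversal was hardly possible. The counts depended on the pair of Ehmt2 fl/fl libraries: 28 genes were higher and 12 lower without Ehmt2 fl/fl replicate 1, 123 and 32 without Ehmt2 fl/fl replicate 2, 316 and 206 without Ehmt2 +/+ replicate 3, 420 and 283 without Ehmt2 +/+ replicate 1, 669 and 583 without Ehmt2 +/+ replicate 4, and 658 and 300 without Ehmt2 +/+ replicate 2. With sex as a covariate 336 genes passed (2.33%), 144 higher (0.998%) and 192 lower (1.33%), of which 131 and 167 were also called in the 6 libraries, and with length balance as a covariate 187 were higher and 173 lower. An unadjusted p under 0.05 was reached by 3356 of the 15144 genes, and by 2128 of 14433 with sex as a covariate. DESeq2 called 780 genes higher and 507 lower in the 6 libraries. The genes are described below by gene lists.

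**Figure D1:**
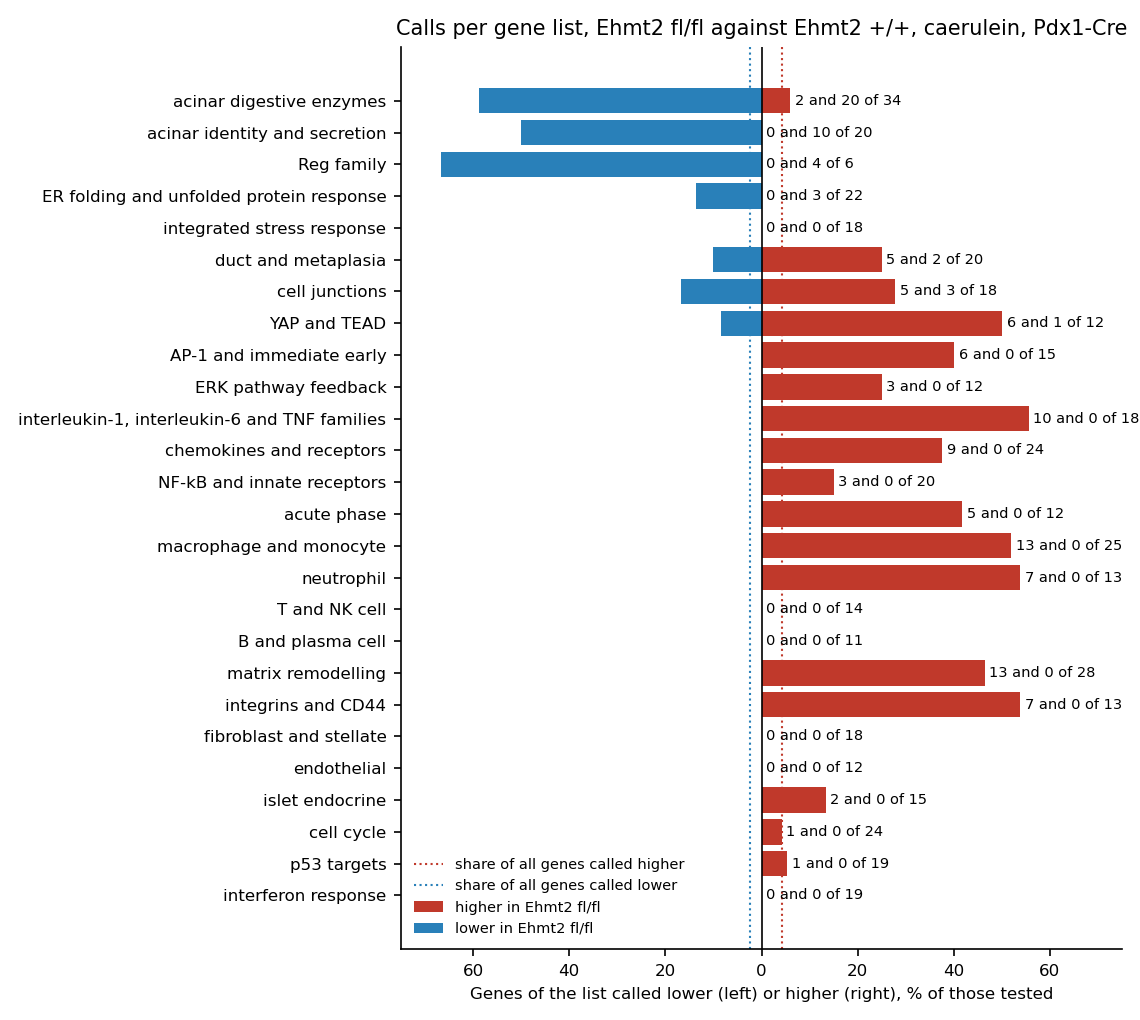
Share of each gene list called higher (right, red) or lower (left, blue) in Ehmt2 fl/fl than in Ehmt2 +/+ caerulein pancreas with Pdx1-Cre, in percent of the members tested; the numbers beside the bars give genes called higher and lower of those tested, and dotted lines the share of all genes called (4.17% higher, 2.48% lower). Acinar and Reg lists lie to the left, and cytokine, macrophage, neutrophil, integrin and matrix lists to the right.

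The regulators of acinar identity fell. Of 20 tested genes for acinar identity and secretion, 10 fell and 0 rose, with a median log2 difference of -1.23. Rbpjl (chromosome 2, 164403141 to 164415448), the acinar-specific subunit of PTF1, had 10.1 and 7.75 CPM in Ehmt2 fl/fl, against 70.4, 61.2, 80.6 and 76.5 CPM in Ehmt2 +/+. Both Ehmt2 fl/fl libraries lay far below every Ehmt2 +/+ library, a log2 difference of -3.02 ± 0.21 (adjusted p = 0.00356). Its 5′ part overlaps Matn4 on the other strand, and these libraries do not keep strand. Bhlha15, which encodes the secretory regulator MIST1, had 7.32 and 9.64 CPM in Ehmt2 fl/fl, against 82.6, 59.96, 101 and 59.05 CPM in Ehmt2 +/+ (log2 -3.15 ± 0.32, adjusted p = 0.01). Nr5a2, a nuclear receptor that activates enzyme genes, was lower to a similar degree in both Ehmt2 fl/fl mice, with 16.5 and 15.1 CPM, against 46.8, 49.1, 51.8 and 49.6 CPM in Ehmt2 +/+ (log2 -1.64 ± 0.14, adjusted p = 0.00584). Gata4, a transcription factor of the acinar lineage (log2 -1.29 ± 0.28), and Xbp1, a regulator of the secretory apparatus (-1.37 ± 0.25), also fell. Cckar, the receptor through which caerulein acts, had 35.5 and 38.2 CPM in Ehmt2 fl/fl and 336, 289, 343 and 141 CPM in Ehmt2 +/+, where replicate 4 was the lowest (log2 -2.91 ± 0.42, adjusted p = 0.0201). Ptf1a, which encodes the core subunit of PTF1, had 21.7 and 19.9 CPM in Ehmt2 fl/fl and 39.9, 37.4, 45.1 and 29.5 CPM in Ehmt2 +/+. The groups of Ptf1a did not overlap and its adjusted p was 0.0631, but its log2 difference of -0.87 ± 0.20 was under the size required.

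Digestive enzymes were lower as well. Of 34 enzyme genes tested, 20 fell and 2 rose, with a median of -1.48. Their summed CPM was 200820.0 and 181512 in Ehmt2 fl/fl, below all Ehmt2 +/+ libraries (512334, 444014, 606189 and 325106), but as a share of all counts Ehmt2 fl/fl replicate 1 lay above Ehmt2 +/+ replicate 4. The mean share was 28.2% in Ehmt2 fl/fl and 38.5% in Ehmt2 +/+ (exact permutation test, two-sided, p = 0.267, where 0.133 is the smallest value that 2 against 4 libraries can give). Elastases, a chymotrypsin, lipases and an amylase were among the genes that fell. Cela2a, a secreted elastase, had 4544 and 3770.3 CPM in Ehmt2 fl/fl, against 40769, 24359, 35896 and 21327 CPM in Ehmt2 +/+ (log2 -2.88 ± 0.38, adjusted p = 0.0174). Ctrc, chymotrypsin C, an enzyme that degrades trypsinogen, had 1904 and 1606 CPM in Ehmt2 fl/fl, against 21443, 10477, 18283 and 8503 CPM in Ehmt2 +/+ (log2 -3.06 ± 0.48, adjusted p = 0.0263). These genes overlap each other and the end of Casp9 on chromosome 4. Casp9, which encodes an initiator caspase, was counted at 530.3 and 449 CPM in Ehmt2 fl/fl and 5362, 3010.4, 4147 and 2248 CPM in Ehmt2 +/+, and in reads without strand its own transcript cannot be told apart from theirs. Pnlip, pancreatic lipase, fell by 2.12 on the log2 scale and Cel, carboxyl ester lipase, by 1.87. Rnase1 had 729.6 and 573 CPM in Ehmt2 fl/fl and 3638, 2474, 3669 and 2221 CPM in Ehmt2 +/+ (log2 -2.20 ± 0.32). The chymotrypsinogen gene Ctrb1 (log2 -1.08 ± 0.32, adjusted p = 0.112) and the elastase gene Cela1 (-1.06 ± 0.31, 0.107) missed the threshold, as did Spink1, the trypsin inhibitor (-1.17 ± 0.33, 0.101). Under the sex covariate the enzyme list had 11 lower and 2 higher calls and the identity list 7 lower, and with length balance as a covariate they had 10 lower and 2 higher, and 6 lower. With scaling by library totals alone the enzyme list had 8 lower and 2 higher calls (median -0.618). The identity list then had 3 lower and 1 higher (median -0.389). Over all genes that scaling gave 98 lower and 5230 higher calls.

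The promoters of these genes are shown because the genes that fell included Rbpjl, a subunit of PTF1, and enzyme genes, the known targets of PTF1, whose site combines an E-box with a second box. The 250 bases before the annotated start were searched for the E-box CACCTG on both strands in the RefSeq promoter table (GRCm38.p6), in which 10700 of the tested genes had an entry. The motif was chosen after the data were seen, a match is a description of letters, and overlaps between different motifs were not removed. It was present in 82 of 261 genes that fell (31.4%), in 80 of 465 that rose (17.2%) and in 1668 of all 10700 (15.6%). In the enzyme list 14 of 28 promoters held it, and in the identity list 7 of 12. The other box of the PTF1 site, TTTCCC, was in 24.5% of genes that fell and 23.3% of all. Capitals mark CACCTG or its complement CAGGTG in the promoters of Rbpjl (chr2:164402944-164403193, plus strand), Bhlha15 (chr5:144190036-144190285, plus strand) and Cela2a (chr4:141826006-141826255, minus strand), written 5′ to 3′ up to the base before the start.

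Rbpjl: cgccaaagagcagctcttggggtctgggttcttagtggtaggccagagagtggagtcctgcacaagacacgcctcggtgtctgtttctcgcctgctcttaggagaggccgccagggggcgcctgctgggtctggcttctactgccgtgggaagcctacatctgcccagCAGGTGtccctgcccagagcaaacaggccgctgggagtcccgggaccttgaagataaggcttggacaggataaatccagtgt
Bhlha15: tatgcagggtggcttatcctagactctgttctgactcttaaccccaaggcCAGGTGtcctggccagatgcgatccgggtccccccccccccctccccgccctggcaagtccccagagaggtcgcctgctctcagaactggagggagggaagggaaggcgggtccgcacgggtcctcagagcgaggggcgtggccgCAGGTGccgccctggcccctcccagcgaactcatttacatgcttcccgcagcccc
Cela2a: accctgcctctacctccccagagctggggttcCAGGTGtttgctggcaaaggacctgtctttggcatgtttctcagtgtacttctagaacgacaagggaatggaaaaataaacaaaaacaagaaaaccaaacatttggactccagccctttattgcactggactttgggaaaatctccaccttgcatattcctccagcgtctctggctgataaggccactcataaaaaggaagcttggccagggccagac

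**Figure D2:**
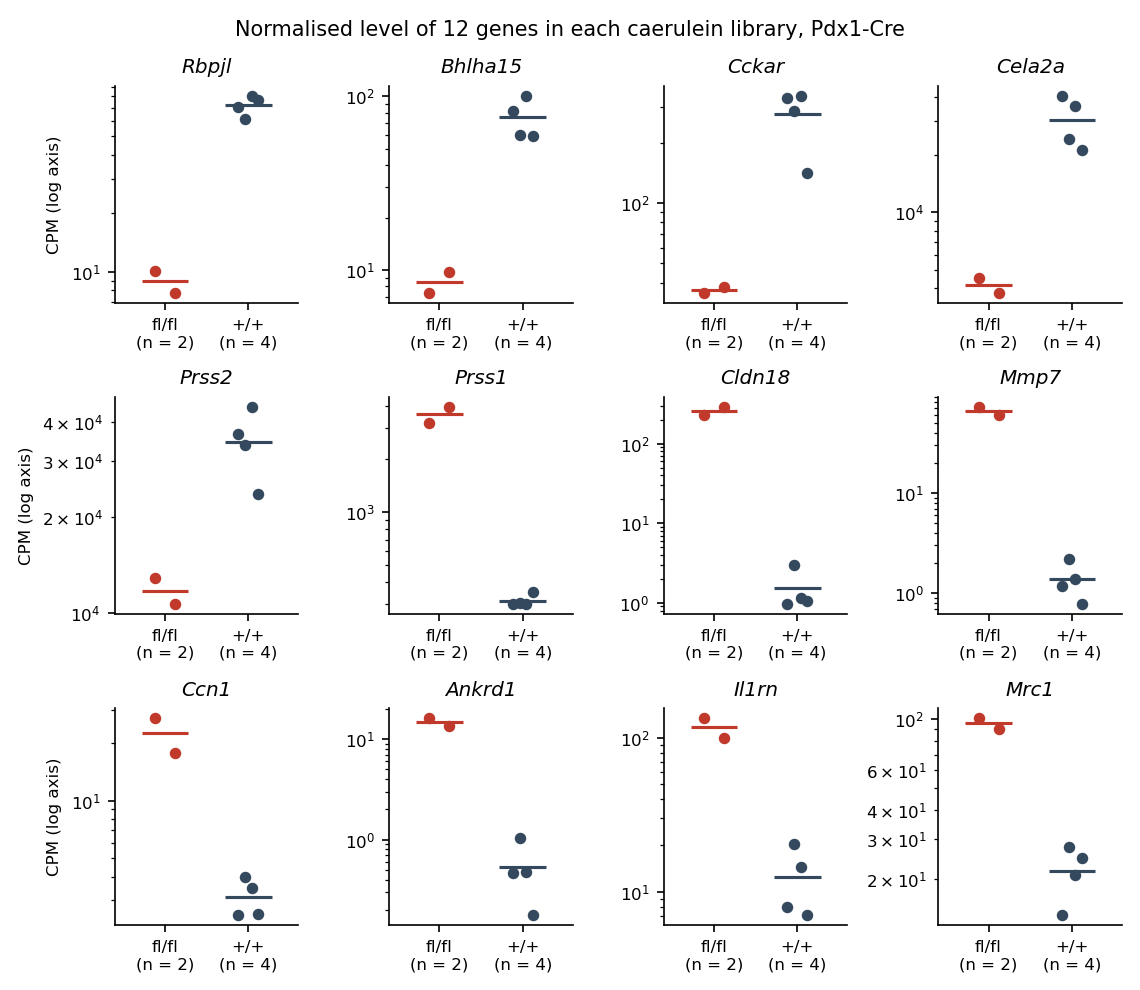
Normalised level (CPM, log axis) of 12 genes in each library, with 2 Ehmt2 fl/fl libraries on the left (red) and 4 Ehmt2 +/+ libraries on the right (dark) of every panel; lines are group means. Rbpjl, Bhlha15, Cckar, Cela2a and Prss2 are lower in both Ehmt2 fl/fl libraries than in every Ehmt2 +/+ library, and the other 7 genes are higher.

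The trypsinogen genes did not move together. Trypsinogens are the zymogens of trypsin, and in the mouse they lie in a cluster on chromosome 6 with many near-identical members. Prss2, an abundant member, had 12886 and 10682 CPM in Ehmt2 fl/fl, against 36593, 33787, 44489 and 23637 CPM in Ehmt2 +/+, and fell (log2 -1.55 ± 0.32, adjusted p = 0.0467). Try4 also fell, with 9793 and 9006 CPM in Ehmt2 fl/fl and 22820.0, 22419, 31216 and 15113 CPM in Ehmt2 +/+ (log2 -1.28 ± 0.33, adjusted p = 0.0823). Prss1 rose in the same libraries. Its level was 3238 and 3979.6 CPM in Ehmt2 fl/fl, against 300.1, 305, 300.5 and 349.9 CPM in Ehmt2 +/+, which is 11.5-fold (log2 3.52 ± 0.19, adjusted p = 0.00342). Prss3 had 9732 and 11571 CPM in Ehmt2 fl/fl and 879, 885, 667 and 1104 CPM in Ehmt2 +/+ (log2 3.59 ± 0.25, adjusted p = 0.00349). Of the gene models between them, Gm10334 had 3634 and 4905 CPM in Ehmt2 fl/fl and 115, 113, 94.9 and 132 CPM in Ehmt2 +/+ (log2 5.23 ± 0.23), and Gm5771 4078 and 4562 CPM in Ehmt2 fl/fl and 262, 374, 270.3 and 1438 CPM in Ehmt2 +/+ (log2 2.88 ± 0.72), with Ehmt2 +/+ replicate 4 apart from the other 3. These 4 genes lie next to each other between 41373759 and 41463786 on chromosome 6, with the pseudogene Gm5409 among them, and the 12 genes of the cluster took 9.46% of all counts in each Ehmt2 fl/fl library and 7.99%, 9.63%, 10.2% and 6.27% in Ehmt2 +/+. The 4 genes took 32.7% and 38.4% of the cluster's counts in Ehmt2 fl/fl and 1.44%, 1.59%, 1.02% and 4.24% in Ehmt2 +/+. The share of the whole cluster overlapped between the groups, while the share of these 4 genes within it did not. Reads of near-identical copies may be split between them by the counting, so the level of each single copy is uncertain.

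Prss1 and Prss3 were also higher without caerulein. In untreated young adults of the same driver Prss1 was at 7739.8 ± 2202 CPM in Ehmt2 fl/fl (SD, n = 3) and 365 ± 9.74 CPM in Ehmt2 +/+ (n = 2), and Prss3 at 17902 ± 3027 CPM in Ehmt2 fl/fl (SD, n = 3) and 972 ± 427 CPM in Ehmt2 +/+ (n = 2). Their log2 differences there were 4.41 ± 0.33 (adjusted p = 0.000211) and 4.20 ± 0.40 (adjusted p = 0.00163), while Prss2 did not pass (-0.067 ± 0.36, adjusted p = 0.969). In the P48-Cre mice after caerulein they were 3.85 ± 0.32, 3.97 ± 0.31 and -1.04 ± 0.31, and the last had an adjusted p of 0.0943. The caerulein by genotype interaction did not pass for Prss1 (-0.88 ± 0.38, adjusted p = 0.328) or Prss3 (-0.61 ± 0.46, adjusted p = 0.556). In 2 further genes of the cluster, 1810009J06Rik and Gm2663, chosen after their values were seen, the untreated difference was 6.75 ± 0.80 and 4.43 ± 0.53, against -0.04 ± 0.31 and -0.89 ± 0.25 after caerulein. The 250 bases before the start of Prss1 (chr6:41458680-41458929, plus strand), Prss3 (chr6:41377614-41377863, minus strand) and Prss2 (chr6:41521526-41521775, plus strand) are shown for the copies that moved in opposite directions, and all 3 hold the E-box in capitals.

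Prss1: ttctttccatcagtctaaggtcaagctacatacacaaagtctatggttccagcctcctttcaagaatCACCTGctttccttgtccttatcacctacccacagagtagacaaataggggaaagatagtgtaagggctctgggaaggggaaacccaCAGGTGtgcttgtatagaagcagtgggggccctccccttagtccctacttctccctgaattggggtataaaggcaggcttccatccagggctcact
Prss3: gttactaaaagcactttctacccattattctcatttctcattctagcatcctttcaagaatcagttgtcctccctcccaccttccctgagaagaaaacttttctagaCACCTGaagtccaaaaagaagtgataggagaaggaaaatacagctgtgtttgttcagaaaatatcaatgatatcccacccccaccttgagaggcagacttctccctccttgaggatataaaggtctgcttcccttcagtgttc
Prss2: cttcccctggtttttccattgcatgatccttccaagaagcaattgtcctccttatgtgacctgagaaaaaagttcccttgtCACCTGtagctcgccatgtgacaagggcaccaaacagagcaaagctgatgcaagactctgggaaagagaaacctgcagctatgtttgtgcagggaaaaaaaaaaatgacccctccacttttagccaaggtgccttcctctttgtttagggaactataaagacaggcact

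**Figure D3:**
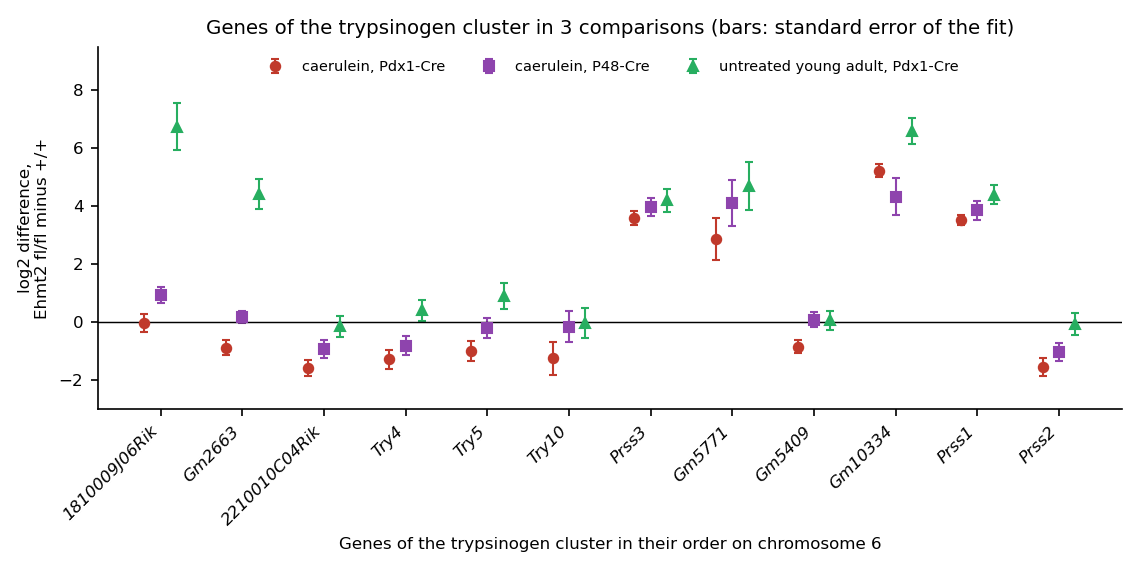
Log2 difference of Ehmt2 fl/fl minus Ehmt2 +/+ (vertical axis, bars are standard errors of the fit) for 12 genes of the trypsinogen cluster in their order on chromosome 6, after caerulein with Pdx1-Cre (circles), after caerulein with P48-Cre (squares) and in untreated young adults with Pdx1-Cre (triangles). Prss3, Gm5771, Gm10334 and Prss1 are above 0 in all 3 comparisons, whereas Prss2 and Try4 are below 0 after caerulein.

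Other secreted and secretory-pathway genes divided. The Reg genes encode secreted lectins that acinar cells make in pancreatitis, and 4 of 6 tested fell, with a median of -1.96. Reg2 had 673 and 593 CPM in Ehmt2 fl/fl, against 12807, 6633, 6606 and 4546 CPM in Ehmt2 +/+ (log2 -3.59 ± 0.50, adjusted p = 0.0194). Reg3b had 372 and 304 CPM in Ehmt2 fl/fl and 6026, 2259, 1896 and 1798 CPM in Ehmt2 +/+ (log2 -3.15 ± 0.64, adjusted p = 0.0464), and Reg1 fell by 1.81. With sex as a covariate 0 of the 6 passed by edgeR, 4 had an unadjusted p under 0.05, and the median was -2.08, while DESeq2 on the 6 libraries called all 6 lower. Of 22 genes for folding in the endoplasmic reticulum and the unfolded protein response, 3 fell and 0 rose, and the median was 0.06. They included Xbp1 and Sel1l, a part of the degradation machinery (125 and 130.3 CPM in Ehmt2 fl/fl and 303, 312, 415 and 348 CPM in Ehmt2 +/+, log2 -1.43 ± 0.20), whereas the chaperone gene Hspa5 was not called (0.58 ± 0.19, adjusted p = 0.136). Of 18 tested entries of the integrated stress response 0 passed by edgeR or DESeq2 and 8 had an unadjusted p under 0.05 by edgeR, and its regulator Atf4 had 109 and 104 CPM in Ehmt2 fl/fl and 91.3, 81.3, 79.3 and 67.4 CPM in Ehmt2 +/+ (log2 0.42 ± 0.17, adjusted p = 0.207). With scaling by library totals alone 12 of the 18 entries were called higher, as were 5230 of all 15144 genes. With length balance as a covariate 1 of the 18 was called higher. In the P48-Cre mice after caerulein 7 of the 18 were called higher (median 0.69), against 3.96% of all genes there. Ctsl, a lysosomal protease that can degrade trypsinogen, fell, with 626 and 647 CPM in Ehmt2 fl/fl and 2115, 2291, 2392 and 1634 CPM in Ehmt2 +/+ (log2 -1.73 ± 0.24, adjusted p = 0.0184).

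Zinc transporters changed in both directions, and of 7 genes of the metallothionein and zinc list 2 rose and 1 fell. Slc30a2, which loads zinc into acinar granules, had 1.37 and 1.31 CPM in Ehmt2 fl/fl, against 25.8, 14.2, 17.8 and 16.5 CPM in Ehmt2 +/+ (log2 -3.79 ± 0.31, adjusted p = 0.00524). The importers Slc39a4 (28.6 and 17.9 CPM in Ehmt2 fl/fl, 2.34, 4.35, 4.94 and 2.30 CPM in Ehmt2 +/+) and Slc39a14 (log2 1.26 ± 0.18) rose. Mt1, a zinc-binding metallothionein, did not pass (-0.16 ± 0.37, adjusted p = 0.863). Among the largest falls outside the lists were Sostdc1, whose secreted product blocks BMP and Wnt ligands, with 0.258 and 0.498 CPM in Ehmt2 fl/fl and 10.5, 8.30, 9.07 and 8.07 CPM in Ehmt2 +/+ (log2 -4.56 ± 0.34), Chst2, a sulfotransferase (log2 -2.58 ± 0.18), and P2rx1, an ATP-gated channel (log2 -2.77 ± 0.30). All 3 were also called with sex as a covariate, and Sostdc1, Chst2 and Slc30a2 were called in every fit that left out a library.

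Junction genes that other epithelia use rose. Cldn18 (chromosome 9, 99689461 to 99717267), a claudin gene known from tight junctions of gastric and alveolar epithelium, had 227 and 290.1 CPM in Ehmt2 fl/fl, against 0.962, 2.99, 1.14 and 1.06 CPM in Ehmt2 +/+. Both Ehmt2 fl/fl libraries were far above every Ehmt2 +/+ library, a 165-fold difference (log2 7.36 ± 0.50, adjusted p = 0.00349). An antisense gene overlaps part of it. Of 18 junction genes 5 rose and 3 fell. Cldn2, a claudin of leaky epithelia, had 27.5 and 19.1 CPM in Ehmt2 fl/fl and 2.22, 4.52, 5.88 and 2.30 CPM in Ehmt2 +/+, and Cdh17, a cadherin of intestine, 7.86 and 6.13 CPM in Ehmt2 fl/fl and 0.334, 0.218, 0 and 0.531 CPM in Ehmt2 +/+. Cldn4 and Cldn6 also rose, by log2 1.33 and 2.07. Cldn10 (2.00 and 1.61 CPM in Ehmt2 fl/fl, 13.7, 11.1, 13.04 and 7.08 CPM in Ehmt2 +/+) and Gjb1, the connexin that couples acinar cells (log2 -1.59 ± 0.27), fell, and Cdh1, E-cadherin, did not pass (0.38 ± 0.25, adjusted p = 0.422).

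Of 20 duct and metaplasia genes tested, 5 rose and 2 fell. Mmp7, a matrix protease of metaplastic ducts, had 72.3 and 60.5 CPM in Ehmt2 fl/fl, against 1.17, 2.20, 1.38 and 0.779 CPM in Ehmt2 +/+ (log2 5.56 ± 0.36, adjusted p = 0.00349). AV064505, annotated on the opposite strand over part of Mmp7, was counted at 21.98 and 19.4 CPM in Ehmt2 fl/fl and 0.209, 0.653, 0.336 and 0.319 CPM in Ehmt2 +/+, and its reads cannot be told apart from those of Mmp7. Car2, a carbonic anhydrase of ducts, was at 8.07 and 7.65 CPM in Ehmt2 fl/fl and 2.34, 1.85, 1.78 and 2.44 CPM in Ehmt2 +/+ (log2 1.90 ± 0.20), and Cftr, the duct chloride channel, at 7.51 and 6.35 CPM in Ehmt2 fl/fl and 1.84, 3.10, 3.56 and 1.84 CPM in Ehmt2 +/+ (log2 1.42 ± 0.32). Krt20 rose as well (log2 1.53 ± 0.43, adjusted p = 0.0994). The defining duct genes did not pass: Krt19 had 250.4 and 241 CPM in Ehmt2 fl/fl and 242, 342, 462 and 209 CPM in Ehmt2 +/+ (log2 -0.35 ± 0.34), and Sox9 15.1 and 10.2 CPM in Ehmt2 fl/fl and 7.65, 12.9, 10.6 and 6.62 CPM in Ehmt2 +/+ (log2 0.42 ± 0.31). Muc1 (log2 -1.87 ± 0.40) and Tff2 (-2.17 ± 0.43) fell. Under the sex covariate the list had 3 higher and 1 lower call and the junction list 1 and 3, with Cldn18 still called (log2 7.52, adjusted p = 0.00611).

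Several target genes of YAP and TEAD, the transcriptional effectors of the Hippo pathway that respond to cell shape and injury, were higher. The list also holds genes of the factors themselves, Yap1, Tead2 and Tead4 among them. Of 12 tested genes of the list, 6 rose and 1 fell, with a median of 0.94. Ankrd1 had 16.2 and 13.4 CPM in Ehmt2 fl/fl, against 0.460, 1.03, 0.471 and 0.177 CPM in Ehmt2 +/+ (log2 4.75 ± 0.53, adjusted p = 0.0134). Ccn1, a secreted matricellular protein, had 27.2 and 17.9 CPM in Ehmt2 fl/fl, against 2.51, 4.00, 3.50 and 2.55 CPM in Ehmt2 +/+ (log2 2.84 ± 0.26, adjusted p = 0.00743), and Ccn2, its relative, 22.8 and 19.9 CPM in Ehmt2 fl/fl and 2.09, 5.74, 4.27 and 2.80 CPM in Ehmt2 +/+ (log2 2.51 ± 0.37). Amotl2 (log2 1.10 ± 0.24), Ajuba (1.84 ± 0.41) and Tead4 (1.65 ± 0.27) were the other rises. Tead2 fell, with 18.9 and 17.4 CPM in Ehmt2 fl/fl and 73.1, 56.9, 76.996 and 51.6 CPM in Ehmt2 +/+ (log2 -1.83 ± 0.22), and Yap1 itself did not pass (-0.16 ± 0.15, adjusted p = 0.593). With sex as a covariate 3 members were higher and 1 lower, Ccn1 and Ankrd1 among the higher and Tead2 the lower.

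The promoters of the YAP and TEAD genes were read for the TEAD element GGAATG, on both strands and chosen after the data were seen. It was in 7 of the 9 promoters of this list in the table, in 59 of 465 genes that rose (12.7%), in 29 of 261 that fell (11.1%) and in 10.6% of all 10700. The list holds known targets of these factors beside genes of the factors themselves, and the share over all genes that rose lay near that of all genes. The 4 promoters below belong to members that rose, Ccn1 (chr3:145649986-145650235, minus strand), Ankrd1 (chr19:36119845-36120094, minus strand), Amotl2 (chr9:102717554-102717803, plus strand) and Ajuba (chr14:54577662-54577911, minus strand), with GGAATG or its complement CATTCC in capitals.

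Ccn1: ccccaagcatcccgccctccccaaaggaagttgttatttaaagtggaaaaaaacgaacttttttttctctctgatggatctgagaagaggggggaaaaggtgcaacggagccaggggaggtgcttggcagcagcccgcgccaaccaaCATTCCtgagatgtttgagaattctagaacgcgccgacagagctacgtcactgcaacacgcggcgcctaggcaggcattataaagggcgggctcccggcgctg
Ankrd1: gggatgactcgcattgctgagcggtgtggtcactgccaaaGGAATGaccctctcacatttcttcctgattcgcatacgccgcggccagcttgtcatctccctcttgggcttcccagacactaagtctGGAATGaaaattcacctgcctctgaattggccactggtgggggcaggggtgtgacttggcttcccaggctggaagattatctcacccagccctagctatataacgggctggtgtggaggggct
Amotl2: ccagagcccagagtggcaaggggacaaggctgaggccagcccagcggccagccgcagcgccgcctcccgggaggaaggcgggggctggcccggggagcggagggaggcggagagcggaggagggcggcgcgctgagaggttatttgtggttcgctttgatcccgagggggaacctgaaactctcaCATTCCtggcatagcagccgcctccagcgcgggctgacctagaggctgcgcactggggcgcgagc
Ajuba: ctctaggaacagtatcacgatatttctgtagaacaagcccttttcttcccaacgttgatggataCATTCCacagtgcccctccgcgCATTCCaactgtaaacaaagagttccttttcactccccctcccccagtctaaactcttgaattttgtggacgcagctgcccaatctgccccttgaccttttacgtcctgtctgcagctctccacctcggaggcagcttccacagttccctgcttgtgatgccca

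Growth factor and immediate early genes rose in part. Of 7 EGF receptor and ligand genes 2 rose, the ligands Hbegf (6.33 and 5.97 CPM in Ehmt2 fl/fl, 1.05, 2.77, 2.08 and 1.31 CPM in Ehmt2 +/+) and Btc (log2 1.33 ± 0.21), and Egfr did not pass (0.39 ± 0.24, adjusted p = 0.405). The feedback phosphatases of ERK signalling Dusp6 (30.8 and 26.6 CPM in Ehmt2 fl/fl and 10.7, 13.6, 9.54 and 11.6 CPM in Ehmt2 +/+, log2 1.34 ± 0.17) and Dusp5 (log2 1.58 ± 0.30) rose with Ier3 (1.65 ± 0.39), as 3 of 12 feedback genes. Of 15 genes of the AP-1 and immediate early list 6 rose, with a median of 0.79. Klf6 was at 50.8 and 66.4 CPM in Ehmt2 fl/fl and 23.6, 26.3, 18.5 and 25.3 CPM in Ehmt2 +/+ (log2 1.32 ± 0.19), Fosl1, a FOS relative of AP-1, at 3.91 and 3.49 CPM in Ehmt2 fl/fl and 0.502, 1.63, 1.24 and 0.920 CPM in Ehmt2 +/+ (log2 1.77 ± 0.42), and Atf3, a stress-induced repressor, rose by log2 1.04. Fos was much higher in Ehmt2 fl/fl replicate 1 than in replicate 2 (21.1 and 7.51 CPM), against 2.26, 6.01, 3.56 and 2.94 CPM in Ehmt2 +/+, and Jun missed the threshold (0.89 ± 0.25). Under the sex covariate 0 of 14 genes of the AP-1 list and 0 of 7 EGF genes passed by edgeR, and 2 of the feedback genes did. Of the EGF genes 0 had an unadjusted p under 0.05, and of the AP-1 list 10 had an unadjusted p under 0.05 (median 1.11), and 2 of that list passed with length balance as a covariate.

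The AP-1 site TGANTCA was in 44 of 465 genes that rose (9.46%), in 15 of 261 that fell (5.75%) and in 485 of all 10700 (4.53%), and the kappa-B motif (3 G, any 5 bases, 2 C) in 53.1%, 57.9% and 60.9%. Of the genes that rose, the proteases Mmp7 (chr9:7691840-7692089, plus strand) and Mmp13 (chr9:7272264-7272513, plus strand) are shown with the AP-1 site in capitals. Mmp7 has a second annotated start, and the first was used.

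Mmp7: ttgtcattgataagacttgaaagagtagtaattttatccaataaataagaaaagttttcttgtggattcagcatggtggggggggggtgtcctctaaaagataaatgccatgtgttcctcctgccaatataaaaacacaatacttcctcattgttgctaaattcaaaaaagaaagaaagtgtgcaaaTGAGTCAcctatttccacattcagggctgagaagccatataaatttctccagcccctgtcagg
Mmp13: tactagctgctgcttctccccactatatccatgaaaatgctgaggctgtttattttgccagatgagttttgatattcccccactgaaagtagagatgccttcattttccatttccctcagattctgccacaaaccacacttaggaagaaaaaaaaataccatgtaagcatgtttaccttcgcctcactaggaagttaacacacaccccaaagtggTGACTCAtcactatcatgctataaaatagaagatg

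Inflammatory mediators rose. Of 18 tested genes of the interleukin-1, interleukin-6 and TNF families 10 rose and 0 fell, with a median of 1.44. Il1rn, the secreted antagonist of the interleukin-1 receptor, had 135 and 99.5 CPM in Ehmt2 fl/fl, against 7.94, 20.5, 14.5 and 7.04 CPM in Ehmt2 +/+ (log2 3.23 ± 0.43, adjusted p = 0.0182). Il1b had 11.2 and 3.05 CPM in Ehmt2 fl/fl, where replicate 1 was the higher, and 0.962, 1.55, 0.706 and 1.45 CPM in Ehmt2 +/+ (log2 2.61 ± 0.53, adjusted p = 0.0473). The signalling receptor chains of the interleukin-1 system and its decoy rose with them, Il1r1 (log2 1.16 ± 0.19), Il1rap (1.39 ± 0.21) and Il1r2 (2.97 ± 0.65). Lif, a cytokine of the interleukin-6 family, was at 9.36 and 5.16 CPM in Ehmt2 fl/fl and 2.13, 2.20, 2.66 and 1.73 CPM in Ehmt2 +/+ (log2 1.73 ± 0.29). Tnf did not pass, with 2.15 and 1.14 CPM in Ehmt2 fl/fl and 1.71, 1.63, 1.41 and 1.49 CPM in Ehmt2 +/+. The inflammasome gene Nlrp3 rose (log2 1.83 ± 0.36), and Casp1 did not pass (0.20 ± 0.48). Ptx3, a soluble pattern recognition protein, was among the largest rises, with 23.6 and 16.3 CPM in Ehmt2 fl/fl and 0.334, 0.762, 0.907 and 0.319 CPM in Ehmt2 +/+ (log2 5.07 ± 0.43, adjusted p = 0.00616). It lies within Veph1, on the other strand.

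Of 24 chemokine and receptor genes 9 rose and 0 fell. Cxcl5, a neutrophil attractant, had 17.1 and 7.49 CPM in Ehmt2 fl/fl and 0.669, 2.88, 1.92 and 0.531 CPM in Ehmt2 +/+ (log2 3.01 ± 0.68), Cxcl2 3.22 and 2.33 CPM in Ehmt2 fl/fl and 0.125, 0.299, 0.336 and 0.177 CPM in Ehmt2 +/+ (3.52 ± 0.42), and Cxcl14 45.2 and 22.98 CPM in Ehmt2 fl/fl and 8.07, 2.09, 2.35 and 5.27 CPM in Ehmt2 +/+ (2.95 ± 0.57). The monocyte receptors Ccr1 and Ccr2 rose, Ccr2 with 150.2 and 103 CPM in Ehmt2 fl/fl and 20.6, 48.4, 32.2 and 15.3 CPM in Ehmt2 +/+ (log2 2.12 ± 0.44, adjusted p = 0.0491). Ccl2, the ligand of CCR2, missed the threshold (67.8 and 28.5 CPM in Ehmt2 fl/fl, 18.9, 26.6, 22.9 and 16.5 CPM in Ehmt2 +/+, adjusted p = 0.112). Of 20 genes for NF-kB and innate receptors 3 rose, Tlr4 (log2 1.71 ± 0.24) among them, and Nfkb1 (0.36 ± 0.29) and Rela (-0.32 ± 0.31) did not pass. Of 12 acute phase genes 5 rose, with Lcn2, a siderophore binding protein, at 183 and 140.3 CPM in Ehmt2 fl/fl and 26.6, 49.9, 55.8 and 23.2 CPM in Ehmt2 +/+ (log2 2.06 ± 0.38), and Cp, a ferroxidase, at 252 and 203 CPM in Ehmt2 fl/fl and 50.3, 78.9, 70.8 and 52.7 CPM in Ehmt2 +/+ (log2 1.85 ± 0.23). The fibrinogen chain genes Fga (4.53 and 3.01 CPM in Ehmt2 fl/fl, 0, 0.0544, 0 and 0.0708 CPM in Ehmt2 +/+) and Fgg (log2 4.30 ± 0.67) rose, with Fga at or near 0 in Ehmt2 +/+. With sex as a covariate 2 cytokine genes, 2 chemokine genes and 2 acute phase genes were called, and with length balance as a covariate 2, 2 and 3. Of the NF-kB and innate receptor genes 0 were called with either covariate, and 6 had an unadjusted p under 0.05 with each.

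Macrophage and neutrophil markers were higher, and lymphocyte markers followed single libraries. Of 25 macrophage and monocyte genes 13 rose and 0 fell (median 1.36), and their summed level was 3095 and 2464 CPM in Ehmt2 fl/fl and 1082, 1596, 911 and 1051 CPM in Ehmt2 +/+. As a share of all counts the list took 0.410% in Ehmt2 fl/fl and 0.0972% in Ehmt2 +/+, without overlap (exact permutation test, two-sided, p = 0.133, the smallest possible). Other lists were also higher as shares, without overlap and with the same p. The endothelial list, with 0 calls by edgeR, took 0.0424% in Ehmt2 fl/fl and 0.0221% in Ehmt2 +/+. The fibroblast and stellate list took 0.274% and 0.0998%. These shares are not scaled by TMM factors. Mrc1, the mannose receptor of tissue macrophages, had 101 and 90.8 CPM in Ehmt2 fl/fl, against 13.96, 27.7, 20.8 and 24.8 CPM in Ehmt2 +/+ (log2 2.14 ± 0.26, adjusted p = 0.0161). Arg1, an arginase of alternatively activated macrophages, had 70.5 and 53.3 CPM in Ehmt2 fl/fl and 1.17, 11.7, 5.14 and 1.13 CPM in Ehmt2 +/+, where replicates 2 and 3 were above 1 and 4 (log2 3.68 ± 0.88, adjusted p = 0.0693). Cd14, a co-receptor for endotoxin, was at 81.1 and 70.5 CPM in Ehmt2 fl/fl and at most 36.1 CPM in Ehmt2 +/+ (log2 1.41 ± 0.19), Lyz2 rose by 1.21 and Csf1r by 1.10 on the log2 scale. The pan-macrophage genes Adgre1 (1.36 ± 0.44, adjusted p = 0.137) and Cd68 (1.40 ± 0.40, 0.105) missed the threshold, without overlap between the groups. Of 13 neutrophil genes 7 rose (median 2.26). Trem1 had 6.78 and 4.54 CPM in Ehmt2 fl/fl and 0.167, 1.14, 0.403 and 0.283 CPM in Ehmt2 +/+, the chemokine receptor gene Cxcr2 8.76 and 7.69 CPM in Ehmt2 fl/fl and 0.753, 2.39, 1.11 and 1.06 CPM in Ehmt2 +/+, and Mmp8 8.14 and 5.02 CPM in Ehmt2 fl/fl and 0.753, 2.04, 1.14 and 0.354 CPM in Ehmt2 +/+, while S100a9 did not pass (2.26 ± 0.94, adjusted p = 0.222). Under the sex covariate 1 macrophage gene and 2 neutrophil genes were called, although their medians were 1.495 and 1.93, and with length balance as a covariate 4 and 2 were called.

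Of 11 B and plasma cell and 14 T and NK cell genes 0 passed by edgeR or DESeq2, and 0 had an unadjusted p under 0.05. The summed level of the B and plasma cell genes was 16.7 and 548 CPM in Ehmt2 fl/fl and 725, 154, 6.22 and 984 CPM in Ehmt2 +/+, and that of the T and NK cell genes 6.87 and 109 CPM in Ehmt2 fl/fl and 149, 8.87, 3.66 and 192 CPM in Ehmt2 +/+. These sums overlapped between the genotypes and differed widely within each. Without Ehmt2 +/+ replicates 1 and 4 the comparison gave 1199 higher (8.01%) and 602 lower (4.02%) calls (12% of 14960 genes), with 14 of the macrophage genes higher and 13 of the acinar identity genes lower, and with the B and plasma cell level as a covariate 826 (5.45%) and 446 (2.95%), together 8.4%. Both fits were chosen after the data were seen. All 1006 genes kept their direction in both. Their groups did not overlap, so leaving out libraries could hardly reverse them. Of 13 dendritic cell and MHC class II genes, 12 endothelial genes and 9 adipocyte genes 0 passed by edgeR or DESeq2, and 0, 1 and 1 had an unadjusted p under 0.05. Without Ehmt2 +/+ replicates 1 and 4, however, 7 of 12 dendritic cell and MHC class II genes were called higher (median 1.70), 1 of 9 T and NK cell genes (median 2.82) and 0 of 11 B and plasma cell genes (median 2.90). That fit left out libraries rich in B and T cell RNA from Ehmt2 +/+ only and kept Ehmt2 fl/fl replicate 2. These medians are thus raised by the choice of libraries. Of the 11 intestine genes 1 was tested and called higher, and of the 10 skeletal muscle genes 0 were tested.

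**Figure D4:**
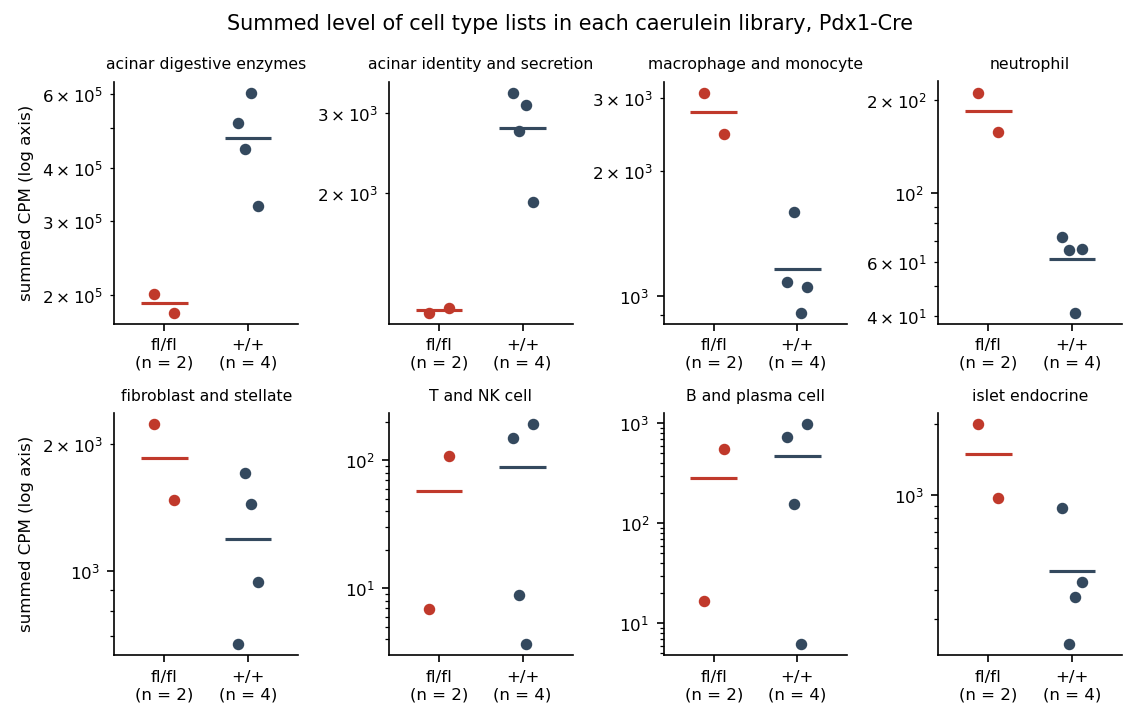
Summed CPM (log axis) of 8 cell type lists in each library, with 2 Ehmt2 fl/fl libraries on the left (red) and 4 Ehmt2 +/+ libraries on the right (dark); lines are group means. Acinar lists are lower and macrophage, neutrophil and islet lists higher in both Ehmt2 fl/fl libraries than in all Ehmt2 +/+ libraries, whereas T, NK, B and plasma cell lists vary over more than a factor of 10 within each genotype.

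Matrix remodelling genes rose without a called change in the fibroblast markers. Of 28 remodelling genes 13 rose and 0 fell (median 1.26), and of 13 integrin and CD44 genes 7 rose (1.04). Thbs1, thrombospondin 1, had 270.4 and 238 CPM in Ehmt2 fl/fl, against 24.3, 92.04, 50.6 and 35.3 CPM in Ehmt2 +/+ (log2 2.33 ± 0.48, adjusted p = 0.0478). Plaur, the urokinase receptor, rose by 1.90 on the log2 scale. The collagenase gene Mmp13 had 2.08 and 1.69 CPM in Ehmt2 fl/fl and 0.125, 0.272, 0.0672 and 0.177 CPM in Ehmt2 +/+ (log2 3.50 ± 0.49), and Mmp14 rose by 1.21. Itga2, a collagen receptor, had 20.95 and 16.2 CPM in Ehmt2 fl/fl, against 1.67, 3.24, 2.15 and 3.47 CPM in Ehmt2 +/+ (log2 2.81 ± 0.31, adjusted p = 0.013), and the laminin receptor gene Itga3 122 and 95.1 CPM in Ehmt2 fl/fl and 13.8, 32.7, 31.5 and 20.5 CPM in Ehmt2 +/+. Cd44 (log2 1.36 ± 0.28) and its ligand Spp1 (1.42 ± 0.23) rose, and Itgb1 did not pass (0.12 ± 0.16). Fn1 had 1156 and 846 CPM in Ehmt2 fl/fl and 43.6, 582, 303 and 159 CPM in Ehmt2 +/+ and did not pass (log2 1.88 ± 0.82, adjusted p = 0.243). Of 18 fibroblast and stellate cell genes 0 passed by edgeR and 1 by DESeq2, with Col1a1 at 1.07 ± 0.64 and Pdgfra at 0.83 ± 0.29. An unadjusted edgeR p under 0.05 was found for 3 of the 18, and for 3356 of all 15144 genes. With sex as a covariate 2 remodelling and 2 integrin genes were called. With length balance as a covariate 0 and 2 were called by edgeR, although 18 remodelling genes had an unadjusted p under 0.05.

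Several lists held few calls by number in the 6 libraries, where 4.17% of all genes were called higher and 2.48% lower. As a share of those tested, calls higher were 13.3% of the islet list, 10.5% of the cell death list and 14.3% of the oxidative stress list. In the p53 target list they were 5.26%. With so few genes per list these shares rest on single genes. Of 15 islet genes 2 rose, among them Chgb, a granule protein (19.5 and 10.7 CPM in Ehmt2 fl/fl and 2.72, 2.07, 3.39 and 3.54 CPM in Ehmt2 +/+, log2 2.37 ± 0.31), while Ins2 (1.82 ± 0.59, adjusted p = 0.137) and Gcg (0.86 ± 0.26, 0.121) did not pass. DESeq2 called 7 islet genes higher and 1 lower, and without Ehmt2 +/+ replicates 1 and 4 edgeR called 8 higher. Of 24 cell cycle genes 1 rose, Ccnd1 (87.2 and 69.8 CPM in Ehmt2 fl/fl and 31.1, 27.4, 21.6 and 38.1 CPM in Ehmt2 +/+, log2 1.41 ± 0.23). The proliferation marker Mki67 had 7.11 and 15.97 CPM in Ehmt2 fl/fl and 16.4, 3.92, 2.49 and 28.2 CPM in Ehmt2 +/+, highest in the libraries with most B cell RNA. Without Ehmt2 +/+ replicates 1 and 4, 12 of the 24 cell cycle genes were called higher (median 0.96), and with sex as a covariate 4 of 22. The first of these fits kept Ehmt2 fl/fl replicate 2, which also held much B cell RNA. The p53 target Gadd45a rose (log2 1.31 ± 0.22) as 1 of 19, and Cdkn1a missed the threshold (0.92 ± 0.26, adjusted p = 0.103). Of 19 cell death genes 2 rose and 1 fell, and of 14 oxidative stress genes 2 rose. The cell death gene that fell was Casp9, whose counts cannot be told apart from those of Cela2a and Ctrc. Ripk3, a kinase of necroptosis, was at 13.2 and 10.1 CPM in Ehmt2 fl/fl and 3.47, 5.52, 3.63 and 4.60 CPM in Ehmt2 +/+ (log2 1.44 ± 0.24), and Hmox1, heme oxygenase, at 61.4 and 40.8 CPM in Ehmt2 fl/fl and 11.8, 25.5, 22.4 and 13.9 CPM in Ehmt2 +/+ (1.47 ± 0.34). Of 14 imprinted genes Peg3 rose (log2 1.66 ± 0.23), and Mest (6.10 and 5.04 CPM in Ehmt2 fl/fl, 21.5, 35.3, 38.95 and 18.7 CPM in Ehmt2 +/+) and Cdkn1c (-1.62 ± 0.22) fell. Asz1, the only one of 11 germline genes that was tested, rose and had 1.503 and 0.916 CPM in Ehmt2 fl/fl and 0.0418, 0.0544, 0.168 and 0 CPM in Ehmt2 +/+. Of 19 interferon response genes 0 passed by edgeR and 1 by DESeq2, and 2 had an unadjusted p under 0.05 (median 0.23).

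The same genotypes were compared in mice with P48-Cre, which recombines from the Ptf1a locus in the pancreatic epithelium. These 3 Ehmt2 fl/fl and 2 Ehmt2 +/+ mice share no library with the Pdx1-Cre mice and include both sexes in each group. There 856 of 14433 genes passed (5.93%), of which 571 rose (3.96%) and 285 fell (1.97%). Of the Pdx1-Cre calls tested in both, 355 of the rises were rises with P48-Cre (59.8% of the Pdx1-Cre and 62.2% of the P48-Cre rises), and 178 of the falls were falls (49.4% and 62.5%). The sign was the same for 588 of 594 rises and 347 of 360 falls, and 2 genes were called in opposite directions. Cldn18 was at 371 ± 76.8 CPM in Ehmt2 fl/fl (SD, n = 3) and 1.29 ± 0.101 CPM in Ehmt2 +/+ (n = 2), a log2 difference of 8.17 ± 0.65. Rbpjl was at 12.8 ± 4.02 CPM in Ehmt2 fl/fl (SD, n = 3) and 77.9 ± 23.8 CPM in Ehmt2 +/+ (n = 2) (-2.61 ± 0.30), Bhlha15 at 7.56 ± 1.67 CPM in Ehmt2 fl/fl (SD, n = 3) and 88.5 ± 45.5 CPM in Ehmt2 +/+ (n = 2) (-3.55 ± 0.37), and Ccn1 at 13.5 ± 1.52 CPM in Ehmt2 fl/fl (SD, n = 3) and 2.49 ± 0.0945 CPM in Ehmt2 +/+ (n = 2) (2.44 ± 0.31). Among the enzymes 10 of 33 fell and 2 rose with P48-Cre, and the median was -0.59. Macrophage genes rose in 13 of 25 (median 1.39), neutrophil genes in 10 of 13 (2.78) and chemokine and receptor genes in 8 of 23 (1.58). Of the YAP and TEAD list 3 of 11 rose and 1 fell (median 0.40), and of the acinar identity list 4 of 20 fell (-0.63). The interleukin-1, interleukin-6 and TNF families had 4 of 18 higher (0.86), matrix remodelling 7 of 28 (0.73) and integrins and CD44 4 of 13 (0.68). Chgb did not pass (0.54 ± 0.39, adjusted p = 0.521). Xist and the Y-linked genes, which separate the sexes, were not called with P48-Cre. The driver by genotype interaction, tested over 14433 genes, gave 0 calls by edgeR (0%), with 702 genes at an unadjusted p under 0.05, and 2 by DESeq2. With 11 libraries this test does not show that the drivers act alike.

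**Figure D5:**
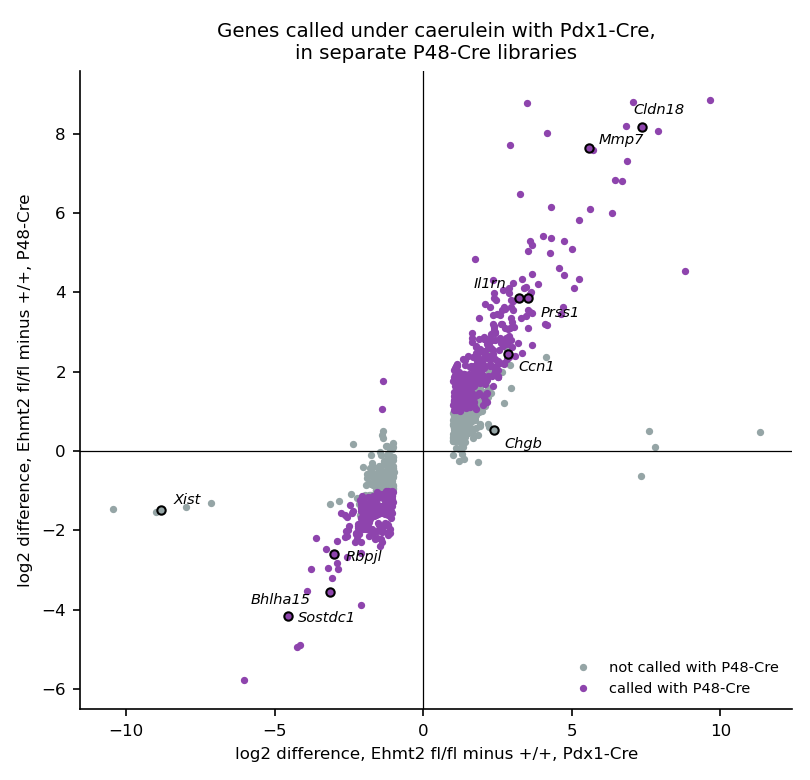
Log2 difference of Ehmt2 fl/fl minus Ehmt2 +/+ after caerulein with Pdx1-Cre (horizontal axis) and with P48-Cre (vertical axis) for the 954 genes called with Pdx1-Cre and tested in both; purple points were also called with P48-Cre, grey points were not. Most points lie in the lower left and upper right, and Xist and the Y-linked genes lie far from 0 on the Pdx1-Cre axis and were not called on the other.

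Without caerulein few genes were called between the genotypes of Pdx1-Cre mice. In untreated young adults (3 Ehmt2 fl/fl, 2 Ehmt2 +/+) 19 of 13407 genes rose (0.142%) and 0 fell (0%) by edgeR, with 637 genes below 0 at an unadjusted p under 0.05, and 10 of the 19 were among the rises after caerulein. Per the methods of the study, the mice of its ontogeny part had no additional treatment. In this comparison caerulein therefore cannot be told apart from the fast, the injections or the cohort. Sex was read only in the treated libraries, where it followed genotype with Pdx1-Cre, so the interaction cannot be told apart from sex either. The caerulein by genotype interaction passed for 167 genes (1.25%), higher in 49 (0.365%) and lower in 118 (0.88%). Acinar identity genes made up 7 of the lower ones, of 20 tested. Rbpjl was at 109 ± 8.68 CPM in Ehmt2 fl/fl (SD, n = 3) and 128 ± 17.9 CPM in Ehmt2 +/+ (n = 2) without caerulein, and its interaction was -2.78 ± 0.28 (adjusted p = 0.00581). Bhlha15 was at 210.3 ± 14.97 CPM in Ehmt2 fl/fl (SD, n = 3) and 200.4 ± 61.1 CPM in Ehmt2 +/+ (n = 2) (interaction -3.23 ± 0.41, adjusted p = 0.00876), Cckar at 484 ± 32.9 CPM in Ehmt2 fl/fl (SD, n = 3) and 413 ± 103 CPM in Ehmt2 +/+ (n = 2) (-3.14 ± 0.49, 0.0271), and Nr5a2 at 37.8 ± 2.17 CPM in Ehmt2 fl/fl (SD, n = 3) and 32.03 ± 0.114 CPM in Ehmt2 +/+ (n = 2) (-1.88 ± 0.20, 0.00581). Ptf1a, not called in the treated comparison, had an interaction of -1.79 ± 0.33 (adjusted p = 0.0444). In the upward direction Mrc1 (2.37 ± 0.42), Tlr4 (2.13 ± 0.42), Klf6 (1.61 ± 0.32) and Slc39a14 (1.33 ± 0.25) passed. By edgeR 1 of 25 macrophage, 0 of 9 neutrophil and 0 of 17 chemokine and receptor genes were higher in the interaction. So were 0 of 14 interleukin and TNF family genes and 1 of 26 remodelling genes. In that order DESeq2 called 4, 1, 3, 3 and 4 higher, and 11, 1, 4, 6 and 5 were higher at an unadjusted edgeR p under 0.05. Of 33 digestive enzymes 1 passed, the elastase gene Cela3a (-1.66 ± 0.30, adjusted p = 0.0438), and 22 by DESeq2, while Cela2a did not by edgeR (-2.47 ± 0.67, adjusted p = 0.135). The counts varied with the untreated Ehmt2 +/+ pair: 0 and 10 genes were called without its replicate 2 and 221 and 356 without its replicate 1. Without Ehmt2 fl/fl replicate 1 of the treated mice they were 1 and 10, without replicate 2 they were 6 and 18, and without treated Ehmt2 +/+ replicate 4 they were 260 and 354 genes.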

How the data were processed

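RNA was taken from whole mouse pancreas, selected for poly(A) and made into libraries with a kit that does not keep strand (TruSeq RNA v2), and only samples with a RIN above 6 were sequenced. Per the methods of the study, reads were mapped and counted with MAPR-Seq against GRCm38.p6 with a GENCODE annotation. The deposited workbooks hold, per gene and sample, raw read counts made by the authors and RPKM values that the authors derived from them. The authors also deposited the log2 fold changes and p-values of their own edgeR 3.28.1 comparisons, which were neither used nor compared here. The RPKM values were not used in a test. No column was left without a sample (0 such columns).

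The 2 Ehmt2 fl/fl and 4 Ehmt2 +/+ libraries of the Pdx1-Cre caerulein sheet were grouped by their labels. Raw counts were fitted in edgeR 4.0.16 (R 4.3.3) with TMM factors, genes filtered by filterByExpr (minimum count 10, minimum total 15) and quasi-likelihood tests, with Benjamini-Hochberg adjustment over all genes tested. Standard errors are the log2 difference over the root of F. Interactions with Cre driver and with caerulein were contrasts in models of 11 libraries each. Shares of counts were compared by exact permutation over 15 arrangements (SciPy 1.17.1). The alternatives were DESeq2 1.42.0, other scalings, no filter, a stricter threshold, covariates and leaving out each library. On simulated counts of 15126 genes at 2 against 4 libraries, 69% of 4-fold and 7% of 2-fold changes were recovered, and 13.6% of calls were false. A change counted as recovered when called, which asks for an estimate of at least 1 on the log2 scale. True 2-fold changes can thus miss by size alone. The simulation changed 100 genes at each size, fewer than were called in the data. No 2 libraries of a group were duplicates (chi-square of at least 45.8 per degree of freedom). Depth was 31155447 to 40320648 counts. Gene positions come from GENCODE vM21 for 15126 genes, and 18 genes had none. Promoters come from the RefSeq table of GRCm38.p6. Tables and figures used Python 3.11.15, pandas 2.3.3 and Matplotlib 3.10.9.

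The members, gene lists and tests were chosen with earlier results of these data known. The rule for naming a gene took in Ehmt2 and, among called genes with a mean of at least 5 CPM and no overlap between the groups, at most 15 that rose most and 15 that fell most, clone names left out. From every list it took the 2 members written first and at most 4 with the smallest adjusted p, and it added the genes that the study's account of caerulein mentions. 1810009J06Rik, Ajuba, Amotl2, Atf3, Ccr2, Cdh17, Cel, Cftr, Cldn4, Csf1r, Ctrb1, Fn1, Gata4, Gjb1, Gm10334, Gm2663, Gm5409, Gm5771, Il1r2, Itgb1, Krt20, Lyz2, Matn4, Mmp14, Muc1, Plaur, Pnlip, Prss2, Rnase1, Spink1, Tead4, Thbs1, Tnf, Try4 and Yap1 were named after their values were seen, as were all genes of the closing section that are not in the report. Some genes that the rule names are not reported here.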

Additional observations from a re-analysis of the deposited data

Results flagged for a closer look

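In the group of 4 Ehmt2 +/+ libraries, 8 of 220 values tested lay farther from the rest than Dixon's limit for 4 samples allows, where chance gives about 1 in 20. Replicate 4 stood apart for Amy2a5 (597 CPM, below the others), and for Prss1 (350 CPM), Gm5771 (1440 CPM) and Xist (359 CPM), above the others. Replicate 2 stood apart for Cldn18 (2.99 CPM), Fcgr3 (16.4 CPM) and Plaur (8.24 CPM), and replicate 1 for Reg3b (6030 CPM).

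The 177 genes examined were chosen largely by their difference after caerulein, which is also a part of the interaction. A raised share of passing genes among them therefore follows from the choice. Over all 13407 genes tested 167 passed (1.25%). The genotype difference after caerulein differed from that in untreated young adults, by the interaction test, in 25 of the 177 genes. It was lower after caerulein in 1810009J06Rik (log2 -6.788), Gm2663 (-5.312), Sostdc1 (-4.215), Kirrel2 (-3.43), Slc30a2 (-3.31), Bhlha15 (-3.228), Cckar (-3.144), Mest (-2.965), Cldn10 (-2.931), Rbpjl (-2.781), Tent5c (-2.367), P2rx1 (-2.262), Cdkn1c (-2.101), Chst2 (-2.066), Nr5a2 (-1.882), Ptf1a (-1.786), Ctsl (-1.727), Matn4 (-1.686), Cela3a (-1.657), Tead2 (-1.618) and Xbp1 (-1.489). It was higher in Slc39a14 (1.331), Klf6 (1.613), Tlr4 (2.127) and Mrc1 (2.374).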

How the results depend on the processing

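Against 631 higher and 375 lower genes, the counts were 5230 and 98 with scaling by library totals alone, 187 and 173 with length balance as a covariate, and 144 and 192 with sex as a covariate in 11 libraries. Without Ehmt2 +/+ replicates 1 and 4 together, chosen after the data were seen, they were 1199 and 602, and at an adjusted p under 0.05 there were 363 higher genes. Leaving out 1 library gave 28 to 669 higher and 12 to 583 lower genes, lowest without Ehmt2 fl/fl replicate 1. With RLE factors, factors without digestive enzyme, Reg and mitochondrial genes, no filter, DESeq2, the model of 11 libraries or the B cell covariate both counts stayed within 1.5 times. The driver interaction was 0 higher and 0 lower by edgeR and 0 higher and 2 lower by DESeq2. The caerulein interaction, 49 higher and 118 lower by edgeR, was 202 and 356 by DESeq2, and 0 to 260 higher and 10 to 356 lower without 1 library. The macrophage share differed by 0.313 percentage points, by 0.4144 with enzyme counts left out of the total, and by 0.2606 to 0.3655 without 1 library. Among 177 genes examined, a change of direction was counted only for genes called in the fit of the 6 libraries or in the alternative. It was found for the Y-linked Ddx3y (log2 -0.17115), Eif2s3y (-4.0579) and Kdm5d (-3.2957) with sex as a covariate, which takes up the sex difference by construction. It was also found for Mki67 (1.7609 without Ehmt2 +/+ replicates 1 and 4 together, against -0.14). Uncounted changes of sign occurred in genes called in neither fit, such as 1810009J06Rik (-0.04, and 0.16 with sex as a covariate). The call was lost for 65 of 176 genes with the sex covariate and 56 of 177 with length balance. The causes of these changes were not tested. No paired analysis was possible because the replicate numbers are animal identifiers that pair no mice. With 2 Ehmt2 fl/fl mice read as male against 4 Ehmt2 +/+ mice read as female, genotype and sex cannot be told apart. In the simulation 7% of 2-fold changes were called, where a call also asks for an estimate of at least 2-fold.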

Other observations

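Of the 26 rises called in every fit that left out a library, 5 outside the gene lists are described here, chosen after their values were seen, with no count or test of what they share. Cblif, which encodes gastric intrinsic factor, had 4.29 and 3.66 CPM in Ehmt2 fl/fl and 0.209, 0.109, 0.0336 and 0.0708 CPM in Ehmt2 +/+ (log2 5.23 ± 0.50). Sftpd, surfactant protein D, had 12.4 and 9.90 CPM in Ehmt2 fl/fl and at most 1.09 CPM in Ehmt2 +/+ (log2 3.52 ± 0.21), and Ivl, involucrin of squamous epithelium, 5.35 and 8.58 CPM in Ehmt2 fl/fl and 0.293, 0.408, 0.302 and 0.425 CPM in Ehmt2 +/+ (log2 4.27 ± 0.29). Gabrp, a GABA receptor subunit of epithelia, had 7.56 and 5.28 CPM in Ehmt2 fl/fl and 0.293, 0.408, 0.235 and 0.354 CPM in Ehmt2 +/+ (log2 4.29 ± 0.29), and Mgam, the intestinal maltase-glucoamylase, 11.2 and 9.80 CPM in Ehmt2 fl/fl and 0.627, 0.843, 0.975 and 0.885 CPM in Ehmt2 +/+ (log2 3.65 ± 0.22). With P48-Cre the log2 difference was 5.81 ± 0.95 for Cblif, 5.05 ± 0.43 for Sftpd, 5.00 ± 0.47 for Ivl, 5.37 ± 0.63 for Gabrp and 2.66 ± 0.32 for Mgam. Mgam lies near the trypsinogen cluster on chromosome 6. The stomach marker Atp4a had 1.37 and 1.06 CPM in Ehmt2 fl/fl and 0.334, 0.517, 0.639 and 0.106 CPM in Ehmt2 +/+ and did not pass (edgeR adjusted p = 0.186).

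Among the falls called in every such fit outside the lists were Kirrel2, a nephrin-like adhesion molecule of islets, with 0.601 and 0.558 CPM in Ehmt2 fl/fl and 5.52, 5.31, 7.02 and 4.60 CPM in Ehmt2 +/+ (log2 -3.27 ± 0.27), Tent5c, a poly(A) polymerase, with 10.4 and 13.4 CPM in Ehmt2 fl/fl and 79.2, 59.7, 76.4 and 67.3 CPM in Ehmt2 +/+ (log2 -2.56 ± 0.21), and C2cd4a, with 0.258 and 0.0597 CPM in Ehmt2 fl/fl and 2.68, 2.39, 3.50 and 2.69 CPM in Ehmt2 +/+ (log2 -4.13 ± 0.58). In all, 38 genes were called in every one of the 6 fits that left out a library, 26 higher and 12 lower, and these included Xist and the Y-linked Kdm5d, Eif2s3y and Uty, which separate the sexes of the mice.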
